A study of Papio papio with 23 samples.

Results

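The proteasome subunits and their dedicated assembly factors were followed in the blood of irradiated baboons. Members were the genes named PSMA to PSMG followed by a number on the array, with a probe well above background on at least 4 of 23 arrays. By this rule 47 of the 48 matching gene names were kept, among 21126 genes in all. PSMA8, the testis form of an alpha subunit, was not kept. The core chambers, the regulatory particle and the immunoproteasome were then described separately.

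Peripheral whole blood of adult male *Papio papio* baboons, with a study-wide mean age of 8.1 ± 3.3 years, was measured on human Agilent arrays of a single colour. The irradiated groups take their names from the later grade of haematological acute radiation syndrome (HARS), the fall in blood cells after irradiation. The H2-3 category held 5 baboons and the H1-2 category 4 baboons, each sampled on day 2 and day 1 after exposure to gamma rays of the total or part of the body. The unexposed H0 group held 5 healthy baboons sampled before irradiation. The equivalent whole-body dose was 2.5 or 5 Gy for the study as a whole and is not given per animal, so dose and category could not be separated. The labels do not say whether the H0 baboons were irradiated afterwards and sampled again. The irradiated groups are thus defined by an outcome and not by a dose, and the probes were designed for human transcripts. The question of the study was which genes differ in the first 2 days between baboons with different later HARS categories.

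The proteasome degrades proteins that carry a ubiquitin chain. Its core particle is a barrel of alpha rings, which gate the entry, around beta rings, in which PSMB5, PSMB6 and PSMB7 carry the proteolytic sites. A regulatory particle of ATPases (PSMC) and non-ATPases (PSMD) binds, unfolds and feeds in the substrates. In leukocytes and under interferon-gamma, PSMB8, PSMB9 and PSMB10 are built into new cores in place of PSMB5, PSMB6 and PSMB7, forming the immunoproteasome, and the PA28 activator (PSME1 and PSME2) can cap it. These forms are known for making peptides for MHC class I molecules. PSMG1 to PSMG4 are chaperones that help to assemble the alpha ring of the core and leave before it is mature.

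The sequences below are the probes of 5 of the 6 catalytic subunits, without that of PSMB10. They are shown because the RNA of constitutive and immune subunits can be told apart only if their probes differ. They come from the deposited scanner files, are 60 bases long and are given 5′ to 3′, with no part in capitals. The constitutive PSMB5 probe lies at chr14:23495485-23495544 on the minus strand of hg19. The PSMB6 probe lies at chr17:4701404-4701589 on the plus strand and crosses an intron. The PSMB7 probe lies at chr9:127115891-127115950 on the minus strand. The immune PSMB8 probe lies at chr6:32810023-32810490 on the minus strand and crosses an intron, and the PSMB9 probe at chr6:32823918-32823977 on the plus strand.
PSMB5: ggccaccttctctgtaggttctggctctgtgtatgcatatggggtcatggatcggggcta
PSMB6: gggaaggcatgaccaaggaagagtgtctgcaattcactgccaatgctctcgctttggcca
PSMB7: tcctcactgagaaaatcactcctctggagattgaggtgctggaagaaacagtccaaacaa
PSMB8: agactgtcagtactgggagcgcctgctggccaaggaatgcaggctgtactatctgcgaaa
PSMB9: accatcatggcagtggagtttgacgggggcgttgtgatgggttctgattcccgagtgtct
The longest run of bases shared by any pair of the 6 catalytic probes, PSMB10 included, was 4 to 8 bases. That sets probe against probe only. Whether a probe also binds the transcript of its counterpart was not tested, and the probes were not matched to a baboon genome. The human PSMB8 and PSMB9 probes lie 13.4 kb apart on chromosome 6, and those of PSME1 and PSME2 lie 6.02 kb apart on chromosome 14.

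A level is the log2 of the processed spot intensity minus the 75th percentile of its array, and a change is the difference between mean levels, given with its standard error from limma. A gene was called, and is said to have risen or fallen, at a Benjamini-Hochberg adjusted p under 0.05 over all 21126 genes, two-sided. Of the 47 members, 45 were well above background on all 23 arrays, and no member was saturated. The exceptions were PSMB11, the thymus-specific beta subunit, on 20 arrays and PSMD5, a chaperone of the regulatory particle, on 22 arrays. The median SD of a member over the 23 arrays was 0.34 on the log2 scale, against 0.51 for all genes, and 43 of 47 members lay below the median SD of all genes.

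Between 41.4 and 51.3% of an array's probes exceeded background clearly, and H0 replicate 1 had the lowest median correlation with the other arrays, at 0.9263. Arrays of each day were scanned together, so day 2 against H0 and day 2 against day 1 cannot be told apart from the scan day. Day 1 shared a scan day with H0 replicates 3 to 5. Of the H0 arrays, only replicate 5 shared a slide with day 1, with replicate 1 of H2-3. With the slide as a fixed term, day 1 changes against H0 therefore rest on this 1 pair. In H1-2 baboons they also use the slides that both categories share on day 1. Markers of blood cell types moved with the groups. Against H0, in H2-3 baboons on day 1, 9 of 11 T cell, 7 of 8 B cell and 8 of 8 NK cell markers fell. There 1 T cell, 6 of 7 neutrophil, 6 of 6 monocyte and 1 of 6 platelet markers rose. Of all genes 15% rose and 13.5% fell in that comparison, so the T cell and platelet rises were near the share of all genes. No erythroid marker was called in any group. Among H2-3 baboons on day 2, 3 of 11 T cell, 8 of 8 B cell and 2 of 8 NK cell markers were lower than in H0. Higher were 3 of 7 neutrophil, 5 of 6 monocyte and 3 of 6 platelet markers, where 10.3% of all genes were higher and 4.48% lower. For H1-2 baboons on day 1, 3 of 11 T cell and 7 of 8 NK cell markers fell, where 4.43% of all genes fell. There 5 of 7 neutrophil and 2 of 6 monocyte markers rose, where 4.18% of all genes rose. No marker was called in H1-2 baboons on day 2, where 0% of all genes were called. The summed T cell marker level spanned 6.85 to 8.19 in H2-3 baboons on day 2, 6.01 to 7.15 on day 1, 7.29 to 8.3 in H1-2 baboons on day 2, 6.52 to 7.43 on day 1, and 7.79 to 8.77 in H0 baboons. The summed neutrophil level spanned 10.52 to 11.45, 11.04 to 11.62, 9.76 to 10.93, 10.88 to 11.37 and 8.82 to 10.89 in the same order of groups. The summed NK level spanned 5.76 to 8.46, 4.76 to 6.67, 6.78 to 8.76, 5.66 to 6.47 and 7.02 to 9.21, and the summed monocyte level 10.18 to 10.91, 10.59 to 11.15, 9.62 to 10.46, 10.18 to 10.61 and 9.12 to 9.94. The summed B cell level spanned 5.44 to 6.76, 5.87 to 7.55, 5.61 to 8.63, 6.59 to 8.48 and 7.65 to 8.32, and the summed platelet level 8.83 to 10.36, 8.49 to 10.25, 8.32 to 10.66, 8.29 to 9.84 and 7.3 to 8.97. Of the listed markers, PAX5, FCGR3B, CEACAM3 and LYZ were not kept. The part of these shifts in the results was not tested, and in whole blood fewer cells of a type and less RNA per cell cannot be told apart.

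**Figure D1:**
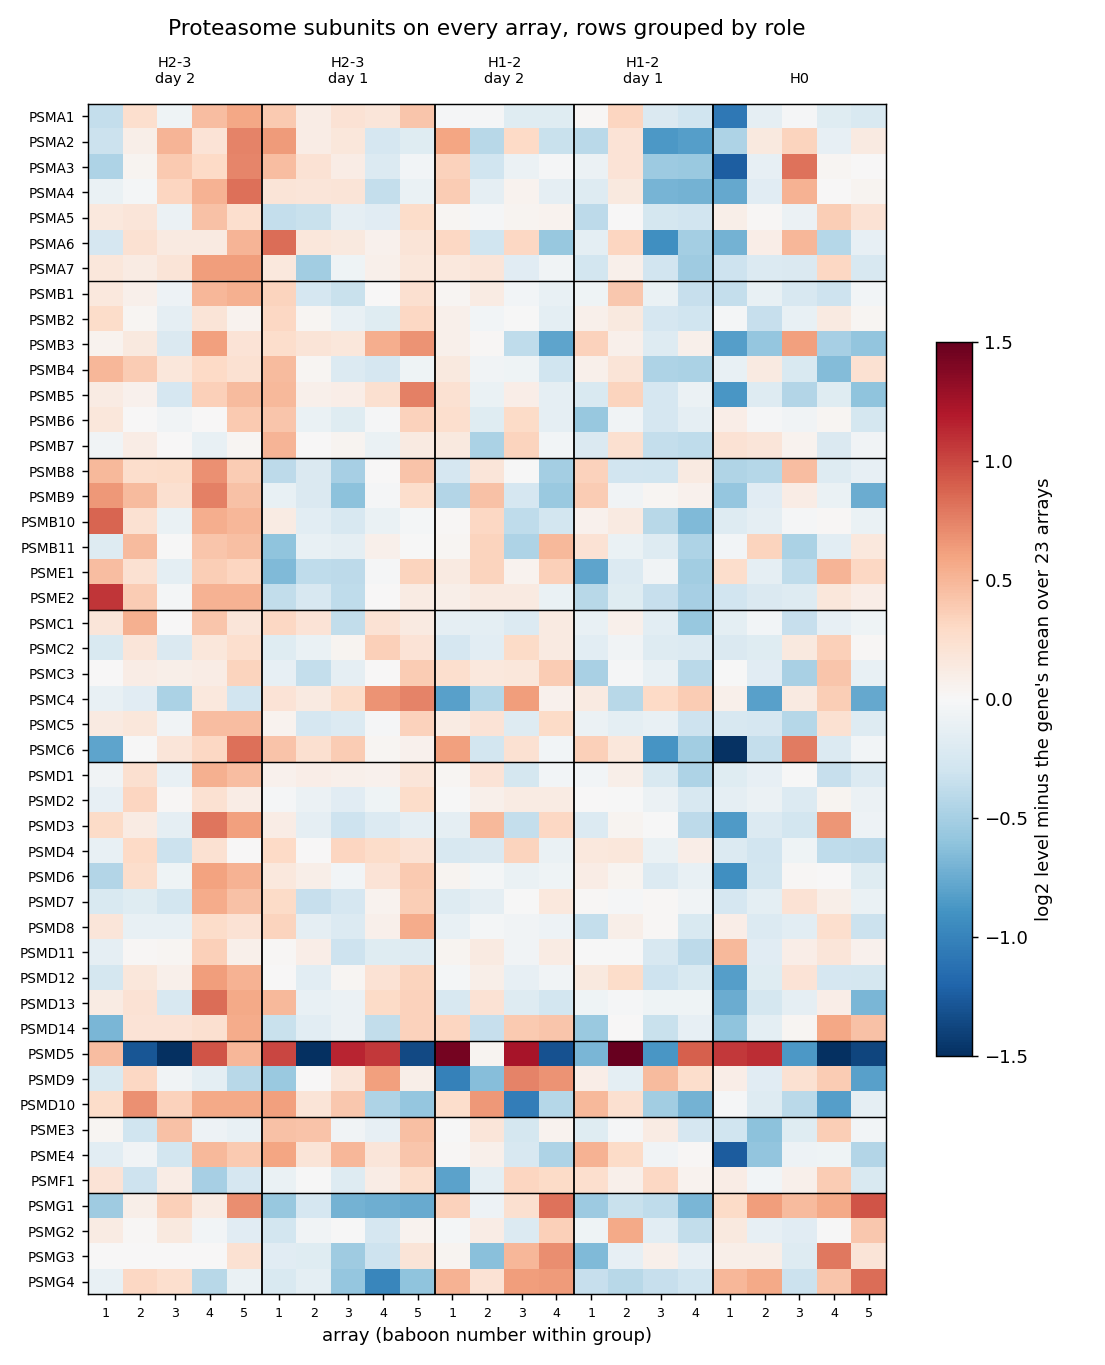
Levels of the 47 members (rows, by role) on each of the 23 arrays (columns, by group, with H2-3 groups left of H1-2 groups and H0 at the right), as the log2 difference from the mean of the gene over all arrays. The row of PSMG1 is low on all day 1 arrays, where its level was at most 2.22, and high on the H0 arrays, where it was at least 2.76.

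Of the 4 core assembly chaperones, 2 fell on day 1, where 13.5% of all genes fell in H2-3 baboons and 4.43% in H1-2 baboons. PSMG1 fell on day 1 in both categories, 2.27-fold in H2-3 baboons and 2.1-fold in H1-2 baboons relative to H0, and PSMG4 fell beside it. By these levels no other member was called lower in any comparison. Under quantile scaling PSMA5, an alpha subunit, was also lower, with a change of -0.55 ± 0.15 in H2-3 baboons (adjusted p 0.0086) and -0.55 ± 0.16 in H1-2 baboons (adjusted p 0.0335), against -0.27 ± 0.15 and -0.35 ± 0.16 here. With the percentile over detected probes PSMA5 (-0.45, adjusted p 0.0229) and PSMD11, a lid subunit (-0.43, adjusted p 0.0314), were lower in H2-3 baboons on day 1. PSMG1, which pairs with PSMG2 to start the alpha ring, had levels of 1.90, 2.22, 1.76, 1.74 and 1.71 in H2-3 baboons on day 1. In H1-2 baboons on day 1 it had levels of 1.92, 2.13, 2.09 and 1.78, against 2.76, 3.1, 2.94, 3.03 and 3.41 in H0 baboons. All 9 day 1 arrays therefore lay below all 5 H0 arrays. Among all genes, 9.27% lay below H0 without overlap in H2-3 baboons and 5.4% in H1-2 baboons. The change of PSMG1 was -1.18 ± 0.21 (SE) in H2-3 baboons, with an adjusted p of 0.000366 by limma. It was -1.07 ± 0.22 in H1-2 baboons, with an adjusted p of 0.0141. On day 2 its level was 1.94, 2.55, 2.83, 2.59 and 3.16 in H2-3 baboons and 2.81, 2.39, 2.71 and 3.28 in H1-2 baboons. These day 2 arrays overlapped the H0 arrays, and the changes against H0 of -0.43 ± 0.21 (adjusted p 0.139) and -0.25 ± 0.22 (adjusted p 0.672) did not pass.

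PSMG4, which pairs with PSMG3 in the same assembly, had levels of 0.28, 0.36, -0.07, -0.47 and -0.10 in H2-3 baboons on day 1. H1-2 baboons on day 1 had 0.16, 0.09, 0.16 and 0.21, and H0 baboons had 1.00, 1.07, 0.18, 0.92 and 1.34. H0 replicate 3 reached into the range of the day 1 arrays, while the other 4 H0 arrays lay above them. The change was -0.90 ± 0.21 in H2-3 baboons (adjusted p 0.00261) and -0.75 ± 0.22 in H1-2 baboons (adjusted p 0.038). PSMG3 had changes of -0.40 ± 0.23 in H2-3 and -0.41 ± 0.24 in H1-2 baboons on day 1, and neither passed. PSMG2, the partner of PSMG1, changed by -0.15 ± 0.17 and -0.06 ± 0.18, which also did not pass. So 2 of 4 assembly chaperones fell, and the median change of the 4 was -0.65 in H2-3 and -0.58 in H1-2 baboons on day 1, against medians over all genes of 0.14 and 0.09.

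The calls of PSMG1 and PSMG4 in H2-3 baboons on day 1 held under all 4 other ways of scaling the arrays and without each array in turn. With the 3 H0 arrays scanned with day 1, PSMG1 changed by -1.26 in H2-3 baboons (adjusted p 0.00555) and by -1.15 in H1-2 baboons, where the adjusted p of 0.109 missed the threshold. In H1-2 baboons the PSMG1 call was also lost with the scan day as a term (adjusted p 0.0572) and without replicate 1 (adjusted p 0.0629), and PSMG4 was called there in 1 of 9 fits that left out an array. With the slide as a fixed term, PSMG1 changed by -1.51 (adjusted p 0.0541) in H2-3 and -1.38 (adjusted p 0.222) in H1-2 baboons. Such a term rests here on the 1 H0 array that shared a slide with day 1. PSMG4 in H2-3 baboons missed the threshold within the shared scan day (-0.81, adjusted p 0.0751) and with the slide as a fixed term (-1.06, adjusted p 0.151).

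**Figure D2:**
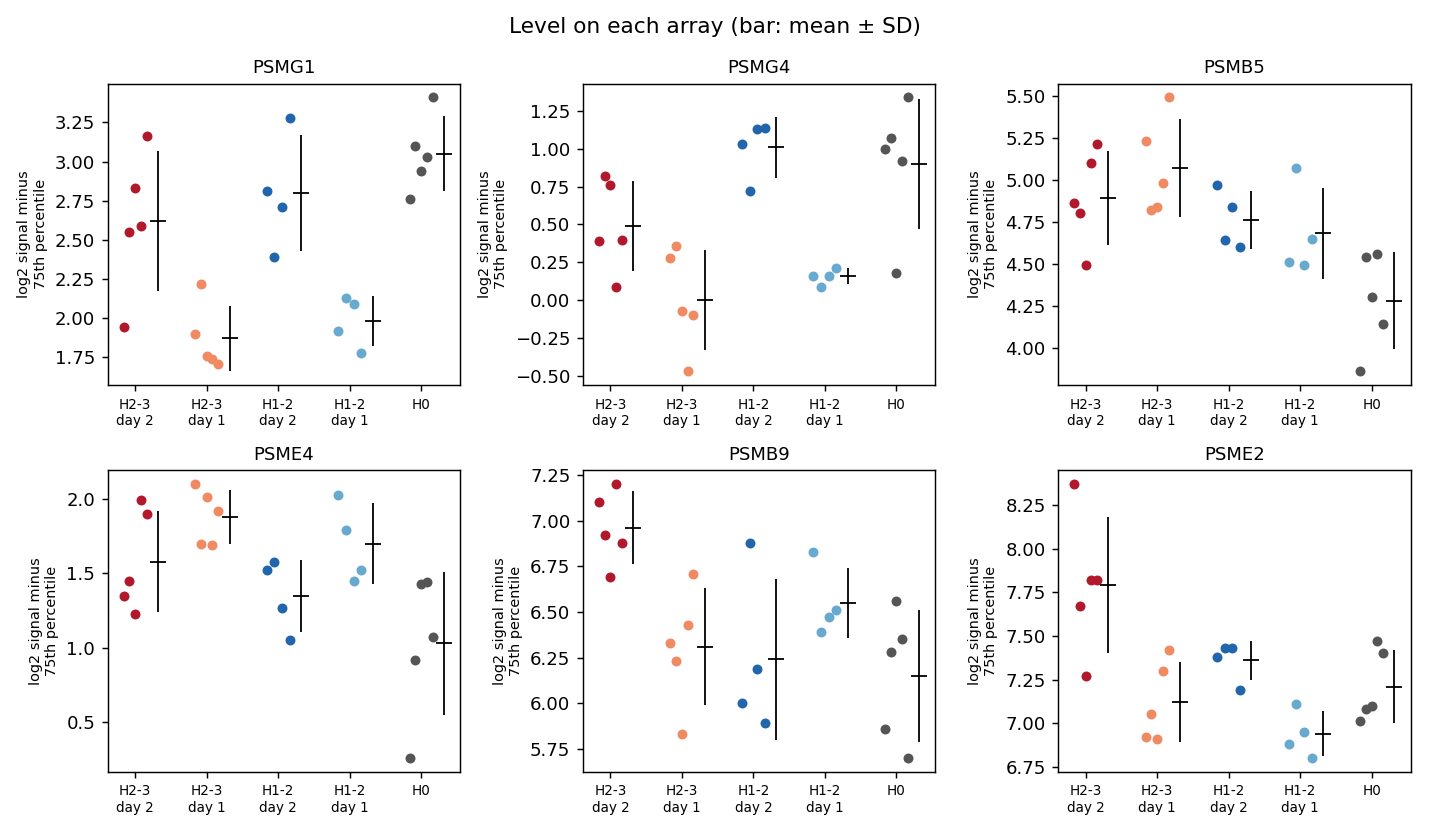
Levels (log2, relative to the 75th percentile of the array) of PSMG1, PSMG4, PSMB5, PSME4, PSMB9 and PSME2 in the 5 groups, with points for arrays and bars for the mean ± SD. PSMG1 on day 1 averages 1.87 ± 0.21 in H2-3 baboons (n = 5) and 1.98 ± 0.16 in H1-2 baboons (n = 4), below 3.05 ± 0.24 in H0 baboons (n = 5), while PSMB9 stands highest in H2-3 baboons on day 2, at 6.96 ± 0.20.

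Across all members, H2-3 baboons on day 1 had 5 members higher and 2 lower than H0 baboons, or 14.9% of the members. Among all genes, 28.4% were called in this comparison, 15% higher and 13.5% lower, so the share of called members was below the background. Medians were 0.12 for the members and 0.14 for all genes. A change above 0 was seen in 36 of 47 members and in 12550 of 21126 genes. The arrays of H2-3 on day 1 and of H0 did not overlap for 5 members above (PSMA1, PSMB5, PSMD1, PSMD4 and PSME4), where 9.57% of all genes did the same, and for 1 member below, where 9.27% did.

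For H1-2 baboons on day 1, 2 members were lower and none higher than in H0, or 4.26% of the members. Among all genes 8.61% were called, 4.43% lower and 4.18% higher. The median change of the members was -0.02, against 0.09 for all genes. No array of H1-2 on day 1 overlapped H0 for PSME4 (above) and PSMG1 (below), where 4.99% of all genes lay above and 5.4% below.

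H2-3 baboons on day 2 had 4 members higher and none lower than H0 baboons, with 10.3% of all genes higher and 4.48% lower. The share of called members was 8.51%, against 14.8% of all genes. The median change was 0.28 for the members and -0.03 for all genes. A change above 0 was seen in 39 of 47 members and in 10178 of 21126 genes, none of which is a test. At an unadjusted p under 0.05, 19 members passed, 18 of them higher, as did 7389 of 21126 genes in either direction. PSMB9, PSMC1 and PSMD10 lay above H0 with no overlap and no member below, where 5.66% of all genes lay above and 2.96% below. Under quantile scaling none of the 4 calls passed. The count of 4 rested on single arrays: it was 0 without H0 replicate 1 or H2-3 replicate 4 of day 2, and 8 without H0 replicate 3.

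For H1-2 baboons on day 2, limma called 0 members and 0% of all genes against H0. The lowest adjusted p among members was 0.408 (PSMB5), and 1 member and 2228 genes had an unadjusted p under 0.05. The PSMB5 arrays lay above H0 without overlap, as did 0.824% of all genes. The median change of the members was 0.10, against -0.01 for all genes.

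**Figure D3:**
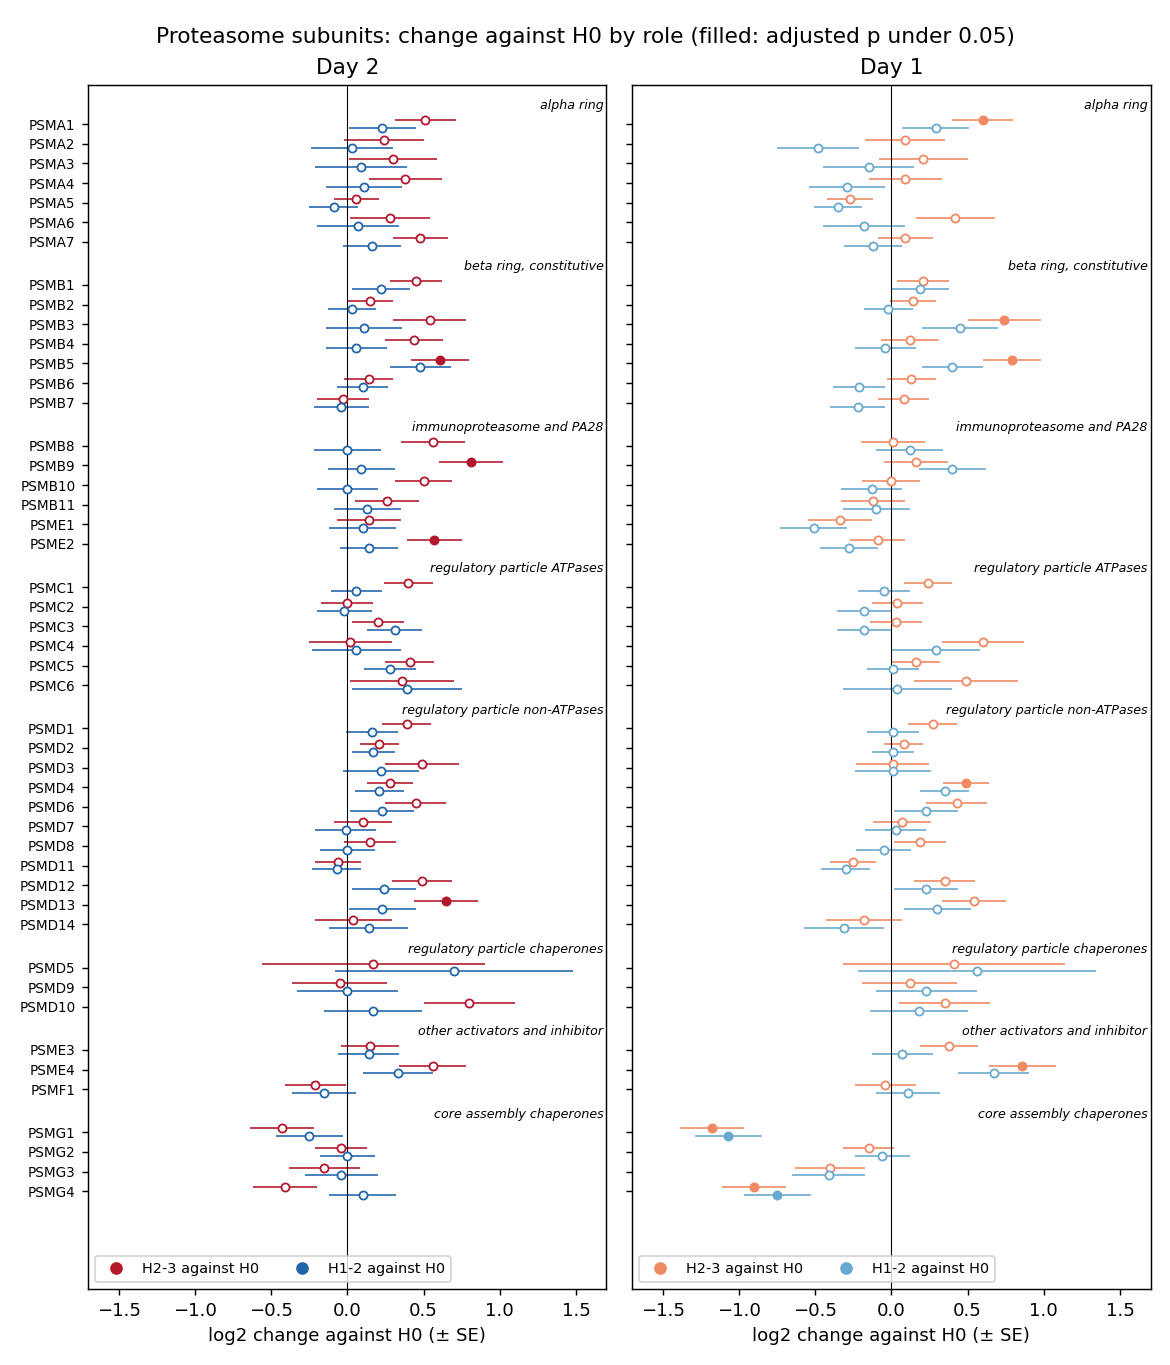
Change of each member against H0 (log2, horizontal axis) by role, with day 2 in the left panel and day 1 in the right panel, H2-3 above H1-2 within each gene, and bars for the standard error. Filled points passed an adjusted p of 0.05, and they are 4 for H2-3 on day 2, 7 for H2-3 on day 1, none for H1-2 on day 2 and 2 for H1-2 on day 1.

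In the alpha ring, which gates the core, 1 of 7 members was called, in a comparison where 15% of all genes rose. PSMA1 rose in H2-3 baboons on day 1, with levels of 4.89, 4.61, 4.71, 4.68 and 4.91 against 3.42, 4.36, 4.47, 4.31 and 4.26 in H0 baboons. H0 replicate 1 was the low array, and the groups did not overlap. The change was 0.60 ± 0.20 (adjusted p 0.0317) and was lost without that array (fitted change 0.41) and under 3 of 4 other scalings. It was also lost within the shared scan day (0.42, adjusted p 0.119). On day 2 in H2-3 baboons all 7 alpha subunits had a change above 0, with a median of 0.30 and a range of 0.06 to 0.51, and none passed. On day 1 in H1-2 baboons 6 of 7 had a change below 0, with a median of -0.18, and none passed.

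In the constitutive beta ring, PSMB5 and PSMB3 rose in H2-3 baboons on day 1, where 15% of all genes rose. PSMB5, which carries the chymotrypsin-like site, had levels of 5.23, 4.82, 4.84, 4.98 and 5.49 on day 1 against 3.86, 4.54, 4.30, 4.56 and 4.14 in H0 baboons. All 5 day 1 arrays lay above all 5 H0 arrays. The change was 0.79 ± 0.19 (adjusted p 0.00352), or 1.73-fold, and it passed under all 4 other scalings and without each array in turn. With the H0 arrays scanned with day 1 it was 0.74 (adjusted p 0.0424). With the slide as a fixed term it was 1.09 (adjusted p 0.147), a value that rests on the 1 pair of arrays sharing slide 3.

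PSMB5 was also higher in H2-3 baboons on day 2, with 4.86, 4.80, 4.49, 5.10 and 5.21, although 1 day 2 array lay within the H0 range. That change was 0.61 ± 0.19 (adjusted p 0.0356) and was lost in 5 of 10 fits that left out an array. In H1-2 baboons its changes were 0.48 ± 0.20 on day 2 and 0.40 ± 0.20 on day 1, and neither passed. PSMB3, a structural subunit, had levels of 5.72, 5.65, 5.63, 6 and 6.13 in H2-3 baboons on day 1, against 4.63, 4.88, 6.08, 4.96 and 4.87 in H0 baboons. H0 replicate 3 lay within the day 1 range and the other 4 H0 arrays below it. The change was 0.74 ± 0.24 (adjusted p 0.0236), and it was lost in 6 of 10 fits that left out an array. It was also lost under 3 of 4 other scalings, with 0.44 (adjusted p 0.138) under quantile scaling, and within the shared scan day, with 0.53 (adjusted p 0.21). The other catalytic subunits did not pass on day 1 in H2-3 baboons: PSMB6, with the caspase-like site, had a change of 0.13 ± 0.16, and PSMB7, with the trypsin-like site, of 0.08 ± 0.17. PSMB1, PSMB2 and PSMB4 had changes of 0.12 to 0.21 there.

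The 6 members listed as immunoproteasome and PA28 were PSMB8, PSMB9, PSMB10, PSME1, PSME2 and also PSMB11, the thymus-specific beta subunit. PSMB11 was dim, with a mean level of -2.39. Of the 6, PSMB9 and PSME2 rose in H2-3 baboons on day 2, where 10.3% of all genes rose. None was called on day 1 in either category. On day 2 in H2-3 baboons all 6 had a change above 0, with a median of 0.53 and a range of 0.14 to 0.81. On day 1 the changes spanned -0.34 to 0.16 in H2-3 baboons and -0.51 to 0.40 in H1-2 baboons. PSMB9, an interferon-inducible catalytic subunit, had levels of 7.10, 6.92, 6.69, 7.20 and 6.88 in H2-3 baboons on day 2, against 5.86, 6.28, 6.56, 6.35 and 5.70 in H0 baboons. The groups did not overlap, and 5.66% of all genes likewise lay above H0. The change of PSMB9 was 0.81 ± 0.21 (adjusted p 0.0182), or 1.75-fold. On day 1 the H2-3 levels were 6.33, 6.23, 5.83, 6.43 and 6.71, close to H0, with a change of 0.16 ± 0.21. In H1-2 baboons PSMB9 had 6, 6.88, 6.19 and 5.89 on day 2 and 6.83, 6.39, 6.47 and 6.51 on day 1, and its changes against H0 of 0.09 ± 0.22 and 0.40 ± 0.22 did not pass.

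PSME2, the PA28 beta subunit, had levels of 8.37, 7.67, 7.27, 7.82 and 7.82 in H2-3 baboons on day 2, against 7.01, 7.08, 7.10, 7.47 and 7.40 in H0 baboons. H2-3 replicate 3 lay within the H0 range and the other 4 arrays above it. The change was 0.57 ± 0.18 (adjusted p 0.036). PSMB8, the immune counterpart of PSMB5, had 5.64, 5.41, 5.43, 5.84 and 5.53 in H2-3 baboons on day 2, against 4.70, 4.72, 5.61, 4.96 and 5.03 in H0 baboons. H0 replicate 3 was as high as the day 2 arrays, and the change of 0.56 ± 0.21 did not pass (adjusted p 0.0699). Without that array it did (adjusted p 0.0221). PSMB10 had 8.05, 7.40, 7.08, 7.72 and 7.67 in H2-3 baboons on day 2, against 6.98, 7.04, 7.16, 7.19 and 7.08 in H0 baboons. H2-3 replicate 3 lay within the narrow H0 range, and the change of 0.50 ± 0.19 did not pass (adjusted p 0.0777). It passed without that array (adjusted p 0.0336). PSME1, the PA28 alpha subunit, had a change of 0.14 ± 0.21, and PSMB11 one of 0.26 ± 0.21. The calls of PSMB9 and PSME2 were lost under quantile scaling of the arrays, with adjusted p of 0.0635 and 0.127, and the PSMB9 call without H0 replicate 1 (0.0552) or H2-3 replicate 4 of day 2 (0.0616). The PSME2 call was lost in 6 of 10 fits that left out an array. The median of the 6 was 0.34 to 0.57 over the other scalings.

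**Figure D4:**
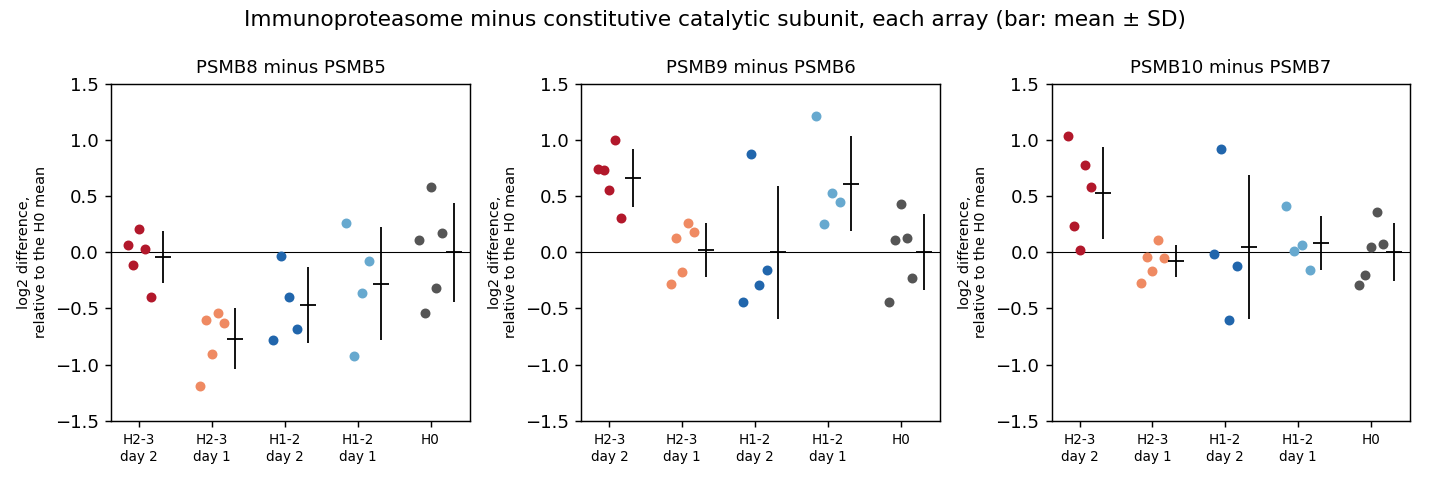
Difference between the log2 level of an immune catalytic subunit and its constitutive counterpart on each array, relative to the mean of that difference in H0 baboons, for PSMB8 and PSMB5, PSMB9 and PSMB6, and PSMB10 and PSMB7. Points are arrays, and for PSMB8 and PSMB5 the H2-3 day 1 arrays sit lowest, 0.77 below the H0 mean on average.

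The arrays measure RNA, so the exchange of catalytic subunits in the particle itself was not measured. The RNA balance of each pair was followed by the difference between its probes on the same array. Only its shift against H0 is interpretable, since probes differ in response, and it was described with no test. For PSMB8 minus PSMB5 the difference was -0.47, 0.12, -0.19, 0.18 and 0.09 in H2-3 baboons on day 1, against 0.83, 0.18, 1.30, 0.40 and 0.89 in H0 baboons, which touched only at 0.18. The mean shift was -0.04 in H2-3 baboons on day 2 and -0.77 on day 1, and -0.47 in H1-2 baboons on day 2 and -0.27 on day 1. For PSMB9 minus PSMB6 it was 0.66 on day 2 and 0.02 on day 1 in H2-3 baboons, and 0 on day 2 and 0.61 on day 1 in H1-2 baboons. The H2-3 arrays of day 2 held differences of 3.14, 3.13, 2.95, 3.40 and 2.70, against 1.96, 2.51, 2.83, 2.53 and 2.17 in H0 baboons, with 1 array inside the H0 range. For PSMB10 minus PSMB7 the shift was 0.53 on day 2 and -0.08 on day 1 in H2-3 baboons, and 0.05 on day 2 and 0.08 on day 1 in H1-2 baboons. On day 2 H2-3 replicates 2 and 3, at 1.93 and 1.72, lay within the H0 range of 1.41 to 2.06. All 3 pairs were thus within 0.1 of H0 or below it on day 1 in H2-3 baboons, and 2 of 3 were above it on day 2.

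In the regulatory particle none of the 6 ATPases, which unfold the substrate, passed against H0. In H2-3 baboons their median change was 0.28 on day 2 and 0.20 on day 1, and in H1-2 baboons on day 1 it was -0.02. PSMC4 had a change of 0.02 ± 0.27 in H2-3 baboons on day 2 and 0.60 ± 0.27 on day 1 (adjusted p 0.102). PSMC1 had a change of 0.40 ± 0.16 on day 2 (adjusted p 0.0884), and its arrays lay above those of H0. By its brightest probe PSMC2 was near 0 in all 4 groups, from -0.18 to 0.04. Its second probe had a change of -0.52 ± 0.22 in H2-3 baboons on day 1 (adjusted p 0.0774). In the other groups that probe had -0.2 to -0.32, and none passed.

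Of the 11 non-ATPases, PSMD4 rose in H2-3 baboons on day 1 and PSMD13 on day 2, where 15% and 10.3% of all genes rose. PSMD4, a receptor that binds ubiquitin chains, had levels of 6.03, 5.74, 6.06, 6.01 and 5.95 on day 1, against 5.53, 5.45, 5.67, 5.36 and 5.35 in H0 baboons. The groups did not overlap, and the change was 0.49 ± 0.15 (adjusted p 0.0211). The call was lost under quantile scaling (0.18, adjusted p 0.32) and with the percentile over detected probes (0.3, adjusted p 0.126). It was also lost with the deposited table (0.19, adjusted p 0.314), while it passed under normexp (0.49, adjusted p 0.00304). Neither did it pass within the shared scan day (adjusted p 0.0798) or with the scan day as a term (adjusted p 0.0532). PSMD13, a lid subunit, had 4.88, 4.98, 4.52, 5.60 and 5.33 in H2-3 baboons on day 2, against 4.01, 4.49, 4.62, 4.86 and 4.07 in H0 baboons. The lowest day 2 array lay inside the H0 range, the change was 0.65 ± 0.21 (adjusted p 0.0384), and it was lost in 6 of 10 fits that left out an array. PSMD14, the deubiquitinase of the lid, had changes of 0.04 ± 0.25 on day 2 and -0.18 ± 0.25 on day 1 in H2-3 baboons. PSMD2, a scaffold of the base, had 0.21 ± 0.13 and 0.08 ± 0.13.

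Some genes had several probes, and they did not always move alike. PSMD1, a scaffold subunit, did not pass in H2-3 baboons by its brightest probe, at 0.39 ± 0.16 on day 2 and 0.27 ± 0.16 on day 1. Its second probe did, at 0.59 ± 0.18 (adjusted p 0.036) and 0.56 ± 0.18 (adjusted p 0.0246). Of 17 further probes of members, 13 had the sign of the brightest probe and 3 the opposite sign in H2-3 baboons on day 2, and on day 1 these were 9 and 8.

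Among the chaperones of the regulatory particle, which include PSMD10 (gankyrin), none was called. The brightest PSMD10 probe, at chrX:107331718-107331777 on the minus strand of hg19, had a change of 0.80 ± 0.30 in H2-3 baboons on day 2 (adjusted p 0.0706), while its other probes had 0.06 and 0.14. The part of probe choice in the PSMD10 value was not tested. PSMD9 had a change of -0.05 ± 0.31 by its brightest probe in H2-3 baboons on day 2 and -1.07 ± 0.41 by its second, neither passing.

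PSME4 (PA200), a nuclear activator that opens the core without ATP, rose in H2-3 baboons on day 1. Its levels there were 2.1, 1.7, 2.01, 1.69 and 1.92. On day 1 in H1-2 baboons they were 2.03, 1.79, 1.45 and 1.52, against 0.26, 0.92, 1.43, 1.44 and 1.07 in H0 baboons. All 9 day 1 arrays lay above all H0 arrays, the H1-2 arrays by a narrow margin. The change was 0.86 ± 0.22 (adjusted p 0.00535) in H2-3 baboons, while 0.67 ± 0.23 in H1-2 baboons did not pass (adjusted p 0.0658). The second PSME4 probe had a change of 0.14 ± 0.28 in H2-3 baboons on day 1, and the mean of both probes changed by 0.50 (adjusted p 0.0941). With the scan day as a term the change was 0.57 (adjusted p 0.0725). PSME3 (PA28 gamma) and the inhibitor PSMF1 had changes of 0.38 ± 0.19 and -0.04 ± 0.20 there and did not pass.

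Between the HARS categories no member passed on either day, and neither did any gene (0% called in both). On day 2 the median difference of the members, H2-3 minus H1-2, was 0.13 against 0.02 for all genes, the lowest adjusted p was 0.508, and 5 members and 2062 genes had an unadjusted p under 0.05. The arrays of H2-3 lay above those of H1-2 for PSMB4 and PSMB8, as for 0.568% of all genes. PSMB9 differed by 0.72 ± 0.22 and PSMB8 by 0.56 ± 0.22, neither passing. On day 1 the median was 0.16 against 0.04, the lowest adjusted p was 0.827 (PSMA6), and 2 members and 1224 genes had an unadjusted p under 0.05. No member was free of overlap on day 1, where 0.989% of all genes lay above and 1.07% below. Within slides the median of the members was -0.02 on slide 6 and 0.43 on slide 7 for day 2, and -0.04 on slide 4 and 0.36 on slide 5 for day 1.

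From day 1 to day 2 within the H2-3 category, 1 member was higher on day 2, PSME2, which is 2.13% of the members. Among all genes 2.97% were called, 1.74% higher and 1.23% lower. No member was free of overlap between the days, where 2.72% of all genes lay higher and 2.84% lower. The change of PSME2 was 0.67 ± 0.18 (adjusted p 0.0467), and its level was higher on day 2 in 5 of 5 baboons, by 0.36 to 1.45. That call was lost in 8 of 10 fits that left out an array. It was also lost without a filter on dim probes (adjusted p 0.0557), with only the compared groups (adjusted p 0.0932) and with the slide as a random block (adjusted p 0.0678). PSMB9 had a difference of 0.65 ± 0.21, also in 5 of 5 baboons, which did not pass (adjusted p 0.0717). All 6 immunoproteasome and PA28 members, PSMB11 included, had a difference above 0, with a median of 0.52. PSMG1 had 0.75 ± 0.21 in 5 of 5 baboons, at an adjusted p of 0.05 just above the threshold. The titles number the same baboons on both days, and a fit with the baboon as a random replicate block called 4 members: PSMB9 (adjusted p 0.0258), PSMB10 (0.0405), PSME2 (0.0124) and PSMG1 (0.0163). With the baboon as a fixed block none was called, and PSME2 had an adjusted p of 0.0931.

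In the H1-2 category no member and no gene (0%) passed between the days, with a lowest adjusted p of 0.128 (PSMG1) and unadjusted p under 0.05 for 5 members and 4955 genes. With the baboon as a random replicate block, PSMG1 (0.82 ± 0.21, adjusted p 0.0403) and PSMG4 (0.85 ± 0.20, adjusted p 0.0349) were higher on day 2, each in 4 of 4 baboons. The fixed block called neither. The arrays of day 2 lay above those of day 1 for PSMC3, PSME1, PSME2, PSMG1 and PSMG4, as for 4.92% of all genes. The change between days did not pass as different between the categories for any member or gene (0% called, all adjusted p 1 among members). Of the members, 2 had an unadjusted p under 0.05, as had 421 genes. PSMB9 had the difference of 0.96 ± 0.32 and PSMB8 that of 0.67 ± 0.32.

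Partners of the proteasome outside the name rule gave mixed results. Of 24 tested, 3 rose and 2 fell in H2-3 baboons on day 1, 2 rose on day 2, and none was called in H1-2 baboons. Over all genes the shares in H2-3 baboons were 15% higher and 13.5% lower on day 1 and 10.3% higher on day 2, so the counts of partners were no larger than the background. The shares of all genes called in H1-2 baboons were 8.61% on day 1 and 0% on day 2. POMP, the chaperone that matures the beta ring, averaged -1.03 ± 0.39 (SD, n = 5) in H2-3 baboons on day 2, -0.96 ± 0.28 on day 1 and -1.87 ± 0.49 in H0 baboons (n = 5 each). It rose by 0.83 ± 0.24 (SE) on day 2 (adjusted p 0.0274) and by 0.90 ± 0.24 on day 1 (adjusted p 0.00791), while PSMG1 and PSMG4, chaperones of the same assembly line, fell on day 1. In H1-2 baboons POMP changed by 0.97 ± 0.26 on day 2 (adjusted p 0.28) and 0.44 ± 0.26 on day 1 (adjusted p 0.281), neither passing. The H2-3 day 2 call of POMP was lost in 5 of 10 fits that left out an array. It was also lost with the percentile over detected probes (0.68, adjusted p 0.0535) and under normexp (0.29, adjusted p 0.0793). The H2-3 day 1 change of POMP spanned 0.33 to 0.97 over 13 other settings. Its call was lost in 1 of them, with the slide as a fixed term (0.65). UBA1, the main enzyme that activates ubiquitin, averaged 5.32 ± 0.26 on day 2 and 5.24 ± 0.21 on day 1, against 4.49 ± 0.38 in H0 baboons. It rose by 0.82 ± 0.20 (adjusted p 0.0134) and 0.75 ± 0.20 (adjusted p 0.00768). The UBA1 changes in H1-2 baboons, 0.51 ± 0.21 on day 2 (adjusted p 0.405) and 0.65 ± 0.21 on day 1 (adjusted p 0.0565), did not pass. UBE3C, a ligase on the proteasome, fell by 0.53 in H2-3 baboons on day 1 (adjusted p 0.036). That call was lost in 5 of 10 fits that left out an array and within the shared scan day (adjusted p 0.135). In H1-2 baboons on day 1 its change was -0.49 ± 0.19 (adjusted p 0.11). USP14, a deubiquitinase of the regulatory particle, was not well above background on any day 1 array. It was kept through 5 H0 arrays and, on day 2, 4 H1-2 and 3 H2-3 arrays. Its day 1 fall is thus not independent of the filter. By the levels used here, USP14 was at least 1.54-fold lower in H2-3 baboons on day 1 than in H0 baboons (adjusted p 0.0127). That bound sets the mean of H0 against the lowest signal well above background on each day 1 array, or the signal of the probe where higher. For H1-2 baboons on day 1 the same bound was 1.46-fold, and USP14 did not pass (adjusted p 0.0602). Under normexp the fitted change of USP14 in H2-3 baboons on day 1 was -0.24, smaller than that bound, and did not pass (adjusted p 0.0674). With the slide as a fixed term it did not pass either (adjusted p 0.0751). The H2-3 day 1 call of UBA1 did not pass under quantile scaling (adjusted p 0.0837) or within the shared scan day (0.54, adjusted p 0.1). NFE2L1, a transcription factor of proteasome genes, was not called in any comparison, with changes of 0.03 to 0.31 against H0.

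**Figure D5:**
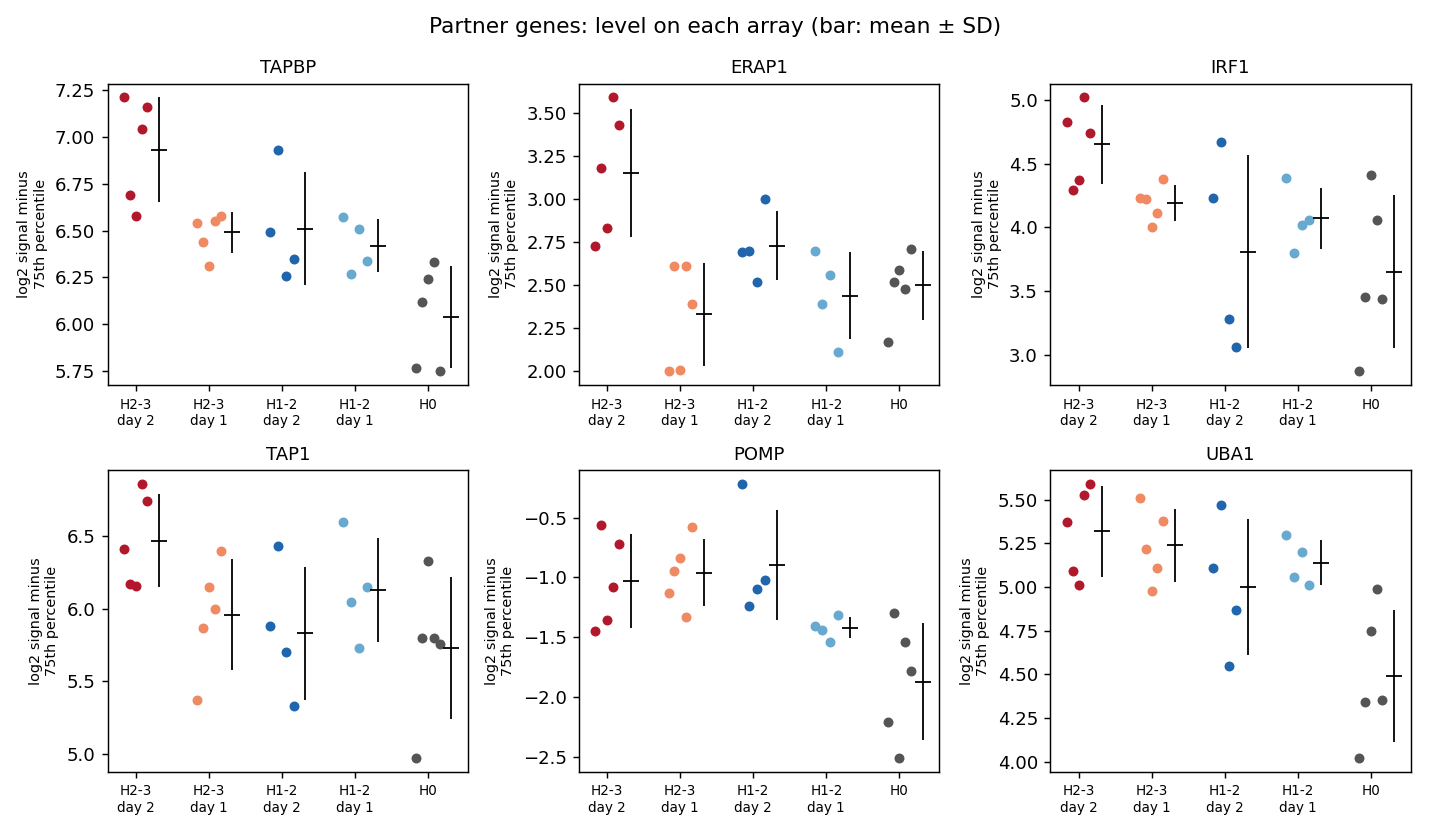
Levels (log2, relative to the 75th percentile of the array) of TAPBP, ERAP1, IRF1, TAP1, POMP and UBA1 in the 5 groups, with points for arrays and bars for the mean ± SD. TAPBP averages 6.93 ± 0.28 in H2-3 baboons on day 2 and 6.04 ± 0.27 in H0 baboons, and TAP1 averages 6.47 ± 0.32 and 5.73 ± 0.49 in the same groups.

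Of 8 tested genes of class I antigen processing, 3 rose in H2-3 baboons on day 2, where 10.3% of all genes rose, the group in which PSMB9 and PSME2 rose. TAPBP (tapasin), which loads peptides onto class I molecules, rose by 0.89 ± 0.17 (adjusted p 0.00742). ERAP1, an aminopeptidase that trims peptides, rose by 0.66 ± 0.19 (adjusted p 0.0286), and IRF1, an interferon-induced transcription factor, by 1.00 ± 0.29 (adjusted p 0.0261). TAP1, the peptide transporter whose gene neighbours PSMB9, had a change of 0.73 ± 0.26, which did not pass (adjusted p 0.0557). NLRC5, a transactivator of class I genes, rose by 0.93 ± 0.33 on day 1 (adjusted p 0.0387). Within the shared scan day its change was 0.52 and did not pass (adjusted p 0.158). Between the days in H2-3 baboons, ERAP1 was higher on day 2 by 0.83 ± 0.19 (adjusted p 0.0308), a call lost in 7 of 10 fits that left out an array. Under quantile scaling ERAP1 and IRF1 on day 2 and NLRC5 on day 1 did not pass (adjusted p 0.0635, 0.0562 and 0.0714). Leaving out an array lost these calls in 3, 4 and 7 of 10 fits, in the same order of genes. In H1-2 baboons none of the 8 was called against H0, where 8.61% of all genes were called on day 1 and 0% on day 2. In H2-3 baboons on day 2, T cell markers stood at a median of -0.73 and monocyte markers at 1.23 relative to H0, and their part in these values was not tested.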

How the data were processed

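Total RNA from 2.5 ml of blood drawn into PAXgene tubes (100 ng, Cy3) was hybridised to 1 array per sample, per the labels' protocols. Scanner files were made with Agilent Feature Extraction 10.7.3.1, per the submitters' processing notes and the file headers, and hold the authors' deposited spot intensity with background already subtracted, plus deposited flags (other values of 0 or 1) for spots well above background or saturated. The authors' deposited value table, an alternative here, holds log2 values of the same arrays; its columns correlated at 0.9982 to 0.9999 with their own scanner intensity, with a median of 4.703, and its exact centring is not known. Probe positions are on hg19 per the file headers.

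Outlier spots were dropped if the probe had another spot. The log2 intensity minus the 75th percentile of the array was taken for 50599 probes, 27210 were kept (well above background on at least 4 arrays), and the brightest kept probe stood for its gene. The comparisons used limma 3.58.1 (R 4.3.3, the data.table package at 1.17.8, statmod at 1.5.0), with a single fit of 5 group means over 21126 genes, Benjamini-Hochberg adjusted, and the code was tested on simulated data. The number of arrays limits the precision. The members and lists were chosen with earlier results of these data known. All members could be named; of the partner lists (NFE2L2 and TAP2 were not kept), the 5 genes with the smallest moderated F p plus POMP, NFE2L1, IRF1 and TAP1 were named, and some genes under this rule are not reported here. The titles number each baboon on both days, so the days are paired; the deviations of the paired arrays correlated at 0.05 to 0.44. Alternatives were quantile scaling, the percentile taken over detected probes only, normexp background correction, the deposited table, other filters and probe rules, slide, scan day and baboon blocks, and leaving out each array; the random slide block was added after seeing the data.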

Additional observations from a re-analysis of the deposited data

Results flagged for a closer look

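Of 295 groups of arrays checked (the 47 members and 12 named partners in 5 groups each), 13 held an array far from the others by the Dixon test, or 4.41%, where chance gives about 1 in 20. On the log2 scale relative to the array's 75th percentile, these were PSMA1 at 3.42 in H0 replicate 1, PSMA7 at 4.95 in H0 replicate 4 and PSMB3 at 6.08 in H0 replicate 3. In H2-3 baboons on day 1 they were PSMA6 at 5.46 (replicate 1), PSMC1 at 3.09 and NLRC5 at 2.22 (both replicate 3), and PSMD1 at 4.58 (replicate 5). In H2-3 baboons on day 2 they were PSMG3 at 0.92 (replicate 5) and USP14 at -4.15 (replicate 1). In H1-2 baboons on day 2 they were PSMD14 at 1.67 and USP14 at -2.53 (both replicate 2) and NFE2L1 at 2.28 (replicate 3), and on day 1 PSMD13 at 4.74 (replicate 2). Without its array the H2-3 day 1 change of PSMA1 against H0 was 0.41 (adjusted p 0.102), and that of PSMB3 was 0.99.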

How the results depend on the processing

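The count of called members is given here as H1-2 day 1, H2-3 day 1, H2-3 day 2 against H0, and H2-3 day 2 against day 1, with 2, 7, 4 and 1 in the report. It was 3, 5, 0 and 2 with quantile scaling and also with the deposited table, 2, 6, 1 and 1 with the percentile over detected probes, and 4, 8, 13 and 2 with normexp. Without a filter on dim probes it was 1, 7, 1 and 0, with the filter on all arrays 3, 8, 4 and 2, with the mean of all probes 2, 7, 5 and 2, and with only the compared groups 1, 5, 2 and 0. With slide as a random block it was 1, 7, 1 and 0. For the day 1 comparisons it was 0 and 0 with slide and 0 and 3 with scan day as a fixed block, and 0 and 2 within scan day 2; these blocks could not be fitted for day 2 against H0 or against day 1. With the baboon as a random replicate block it was 2, 7, 4 and 4, and 2 for H1-2 day 2 against day 1; as a fixed replicate block it was 0 for both between-day counts. The median change of the members in H2-3 day 1 was -0.10 with quantile scaling and with the deposited table, and that of H2-3 minus H1-2 on day 2 was 0.43 within slide 7. The percentile over detected probes put the median of all genes at -0.05 in place of 0.14 in H2-3 day 1, at -0.18 in place of -0.03 in H2-3 day 2 and at -0.03 in place of 0.09 in H1-2 day 1. Leaving out each array in turn gave 0 to 4, 5 to 8, 0 to 8 and 0 to 2. H1-2 day 1 gave 0 without its replicate 1, 4 without H0 replicate 3, and 1 without its replicates 2, 3 or 4 or H0 replicates 1, 2, 4 or 5. H2-3 day 2 gave 0 without H0 replicate 1 or its replicate 4, 1 without its replicate 5, 2 without its replicate 2 or H0 replicates 2 or 5, 7 without its replicate 1 or H0 replicate 4, and 8 without H0 replicate 3. Day 2 against day 1 in H2-3 gave 0 without day 1 replicates 1, 3, 4 or 5 or day 2 replicates 2, 4 or 5, and 2 without day 2 replicate 1. With slide as a fixed block the member median in H1-2 day 1 was 0.19 in place of -0.02. No call for a named gene turned its direction, while the H2-3 day 1 and H1-2 day 1 member medians above changed sign; the causes were not tested. Of the values for single named genes, 458 kept their direction and side of the threshold, 186 no longer passed and 4 newly passed.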
